A study of Mus musculus with 6 samples.

Results

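The 8 genes described here encode metallothioneins and proteins that sense or move zinc. They are Mt1, Mt2, Mtf1, Slc39a14, Slc39a1, Slc30a1, Slc30a5 and Slc30a7, 8 of the 54532 genes in the deposited table of FPKM, a transcript level normalised for gene length and library size. They were found by gene symbol, and they were picked with the values of these 6 libraries in view. Their own differences between groups are therefore given as a description, with no test. All 8 passed the filter of a mean of at least 1 FPKM over the 6 libraries, Mt2 only through the groups in which it was high.

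Poly-A RNA was sequenced from peritoneal macrophages of male C57BL/6J mice, drawn from the peritoneum after thioglycolate and cultured overnight. Control cells were untreated. Model cells received lipopolysaccharide (LPS, 500 ng/mL), a bacterial cell wall component, for 5.5 h and then ATP (2 mM) for 0.5 h. In the MUS group LPS and ATP were given as in Model, and muscone (50 µM), a macrocyclic ketone of musk, was added 5 h after LPS and so 0.5 h before ATP. Each group had 2 libraries, and nothing in the descriptions says whether they came from separate animals or cultures, so errors and p-values measure only the spread between these libraries. No transgene or deletion was used in any group.

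Metallothioneins are small cysteine-rich proteins that bind zinc and copper and buffer them in the cytosol. The transcription factor MTF1 senses free zinc and binds metal response elements in the promoters of Mt1, Mt2 and Slc30a1. Proteins of the SLC39 family (ZIP) bring zinc into the cytosol, from outside the cell or from organelles, and those of the SLC30 family (ZnT) take it out. Activated macrophages are known to shift zinc between these pools, and ZIP14, the product of Slc39a14, is known as an importer that rises in inflammation.

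Mt1 and Mt2 lie next to each other on the plus strand of chromosome 8, Mt2 at chr8:94172664-94173568 and Mt1 at chr8:94179082-94180327 (GRCm38), with 5513 bases between them. Slc30a1 lies at chr1:191906767-191913247 on the plus strand. The promoters of these 3 genes are shown because MTF1 is known to act there. Each run holds the 250 bases before the RefSeq start site on the plus strand of GRCm38.p6. That site is not the same base as the gene start given above. Capitals mark the core of a metal response element on either strand, searched as TGCACNC or TGCGCNC.

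Mt1, chr8:94178839-94179088: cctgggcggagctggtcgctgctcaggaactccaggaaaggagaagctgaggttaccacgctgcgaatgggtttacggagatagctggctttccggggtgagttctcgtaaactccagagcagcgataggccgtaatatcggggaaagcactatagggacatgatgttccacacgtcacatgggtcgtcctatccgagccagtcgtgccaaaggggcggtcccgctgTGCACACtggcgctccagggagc

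Mt2, chr8:94172368-94172617: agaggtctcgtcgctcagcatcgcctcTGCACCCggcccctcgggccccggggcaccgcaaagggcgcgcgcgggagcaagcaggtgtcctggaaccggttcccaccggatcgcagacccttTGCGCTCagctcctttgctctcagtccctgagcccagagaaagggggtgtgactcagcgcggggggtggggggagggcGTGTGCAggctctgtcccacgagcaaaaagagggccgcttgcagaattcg

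Slc30a1, chr1:191906531-191906780: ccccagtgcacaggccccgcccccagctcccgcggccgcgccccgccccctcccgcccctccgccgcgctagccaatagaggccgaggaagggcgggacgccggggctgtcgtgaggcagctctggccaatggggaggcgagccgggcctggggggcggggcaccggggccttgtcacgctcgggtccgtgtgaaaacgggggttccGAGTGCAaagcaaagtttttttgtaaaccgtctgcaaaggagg

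The cores were counted in windows of 300 bases that also take in the first 50 bases of the transcript. The Mt2 window held 4 cores, that of Mt1 held 3 and that of Slc30a1 held 2. The runs shown hold 3 of those of Mt2, 1 of Mt1 and 1 of Slc30a1, and the others lie past the RefSeq start site. Only these windows were searched, so elements outside them were not counted. The counts therefore do not rank the genes by their response elements. Of all 32841 RefSeq windows, 25.7% held at least 1 core, 7.12% at least 2, 1.97% at least 3 and 0.518% at least 4. Slc30a5 had 1 core, and no core was found in the windows of Mtf1, Slc30a7 and Slc39a1. Slc39a14 was not in the promoter table. A match of these letters is a description and does not show that MTF1 was bound.

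The libraries held between 15526321 and 17135442 fragments on genes, recovered from the FPKM values. Model replicate 1 stood apart, with 24906 genes above 0 FPKM against 17406 to 19200 in the other 5 libraries. The FPKM were computed per 1.34 to 1.45 times the fragments on genes in Control, and per 0.909 to 0.998 times in Model and MUS, so that the same share of fragments gave a lower FPKM in Control. Differences of the 8 genes from Control are therefore also given for Model as CPM, the recovered fragments of a gene scaled to the total of fragments on genes in its library, and ratios within a library do not depend on this scale. On the CPM scale, fitted with voom, the median log2 fold change over the 9794 genes tested was -0.50 in Model vs. Control, against 0.04 on the FPKM scale. All 7 macrophage markers were present, with summed levels of 11836 to 13340 FPKM in Control, 8426 to 12535 in Model and 10257 to 12096 in MUS. Most of each sum was Lyz2, at 7275 to 12007 FPKM, so the sums say little of the other markers. Within that list Fcgr1, an antibody receptor, was higher in Model than in Control (log2 fold change 3.57, limma adjusted p = 0.00326), and Csf1r, the receptor for macrophage growth factor, was lower (-1.37, limma adjusted p = 0.0289). In such bulk RNA, fewer cells of a type and less RNA per cell cannot be told apart.

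Metallothionein transcripts were higher in Model than in Control for both genes, and Mt1 alone of the pair was lower in MUS than in Model. Mt1 had 77.9 and 61.7 FPKM in the Control libraries, 302 and 163 in Model, and 75.7 and 107 in MUS. Both Model libraries lay above all Control and MUS libraries, while MUS and Control overlapped. The mean was 69.8 ± 11.5 FPKM (SD, n = 2) in Control, 233 ± 97.8 in Model and 91.4 ± 22.2 in MUS, so that Model was 3.33-fold above Control and MUS 2.54-fold below Model. On the log2 scale Mt1 differed by 1.67 (SE 0.40) in Model vs. Control, -1.29 (SE 0.40) in MUS vs. Model and 0.37 (SE 0.40) in MUS vs. Control.

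The Model libraries differed in Mt1 by more than those of the other groups. Without Model replicate 1, the library with the most genes above 0, Mt1 differed by 1.22 on the log2 scale in Model vs. Control and -0.85 in MUS vs. Model. On the CPM scale, Mt1 was also higher in Model than in Control, with a log2 fold change of 1.13. The value was 1.04 after a rescaling without mitochondrial and the 20 highest genes, and 0.85 after quantile normalization. For MUS vs. Control the sign of Mt1 turned on the CPM scale, to -0.16.

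Mt2 showed another pattern, with few fragments counted in Control and similar levels in Model and MUS. Most of its exon bases overlap an antisense gene, as given below, so its level is uncertain. Its level was 0.0744 and 1.04 FPKM in Control, against 25.2 and 14.9 in Model and, in MUS, 24.2 and 20.4. These values rest on 1 and 14 fragments in Control, 209 and 136 in the Model libraries and 215 and 195 in MUS. All 4 libraries with LPS and ATP lay above both Control libraries, and the MUS libraries fell within the range of the Model libraries. The mean was 0.558 ± 0.683 FPKM in Control, 20.1 ± 7.25 in Model and 22.3 ± 2.67 in MUS, which puts Model 36.0-fold and MUS 40.01-fold above Control on the FPKM scale and 25.2-fold and 28.5-fold on the CPM scale. These ratios rest on the 1 and 14 Control fragments. The log2 fold change, which the pseudocount of 1 FPKM shrinks for a gene this low in Control, was 3.79 (SE 0.38) in Model vs. Control and 3.97 (SE 0.38) in MUS vs. Control. Without Control replicate 1 it was 3.32 in Model vs. Control, and without Control replicate 2 it was 4.25. The voom fit of the recovered fragments gave 5.22 (SE 0.98) and 5.43 (SE 0.98) for the same comparisons of Mt2 with Control. In MUS vs. Model the log2 fold change of Mt2 was 0.19 (SE 0.38).

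The balance between the 2 metallothioneins differed in each group. Mt1 exceeded Mt2 by 1048 and 59.3 times in the Control libraries, by 12.0 and 10.9 times in Model, and by 3.13 and 5.25 times in MUS. The groups did not overlap, and the order was Control, Model, MUS. The ratio in Control replicate 1 rests on a single Mt2 fragment, whose exact Poisson interval at 95% gives a ratio of 188 to 41380, for counting error only. Of the 588 exon bases of Mt2, 73.5% are shared with Gm45774, an antisense gene with 0 to 4 fragments in a library. How such reads were assigned was not given, so the level of Mt2 is uncertain, by itself and relative to Mt1. Mt3 had at most 0.866 FPKM and Mt4 was listed at 0 in all 6 libraries.

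**Figure D1:**
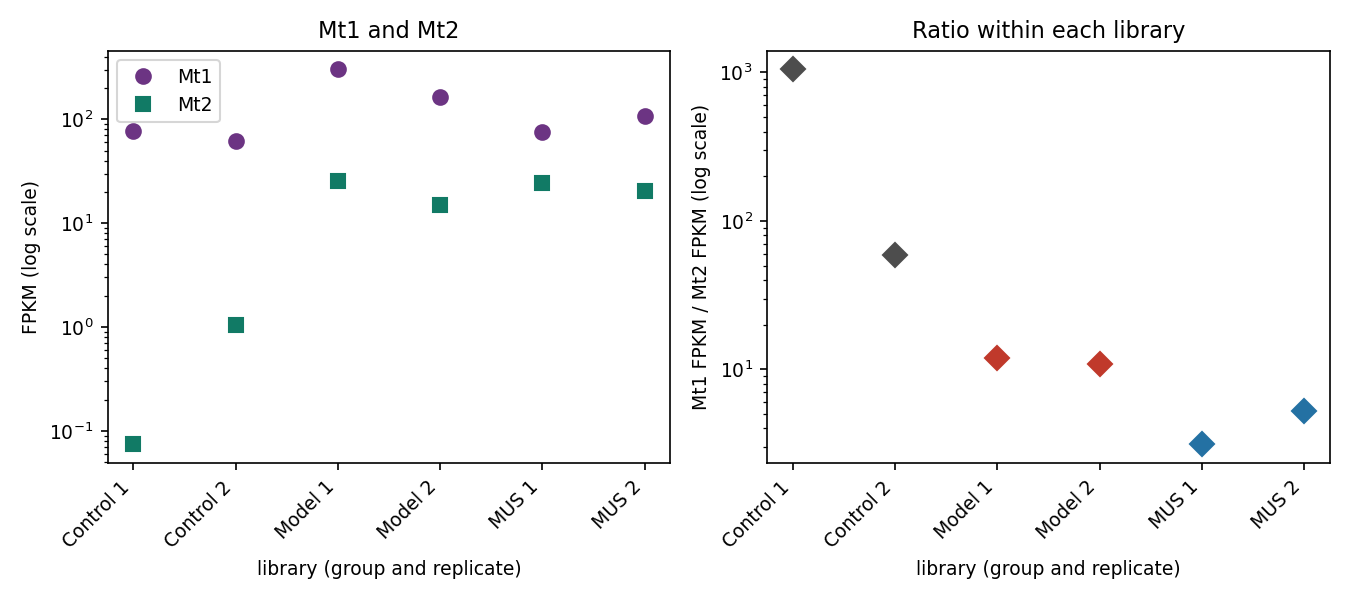
FPKM of Mt1 (circles) and Mt2 (squares) in each library on a log scale (left) and their ratio within each library, also on a log scale (right, grey for Control, red for Model, blue for MUS). Mt2 lies at 1.04 FPKM or below in Control and at 14.9 or above in the other libraries, and the ratio is lowest in the MUS libraries, at 3.13 and 5.25.

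Among the genes tested, those whose pattern over the 6 libraries was most like Mt1 were Tha1, Tmed1 and Igsf8. Likeness was the root mean square difference in log2(FPKM + 1) after centring each gene, which was 0.238 for Tha1, 0.251 for Tmed1 and 0.258 for Igsf8. The genes most like Mt2 were Ifi204, an interferon-activated gene, at 0.153, Il18, the cytokine interleukin 18, at 0.160 and Irgm1, an immunity-related GTPase, at 0.183. Mt1 and Mt2 differed from each other by 1.54 on this measure.

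Mtf1, the zinc-sensing transcription factor, was low in all groups. It had 1.81 and 2.26 FPKM in Control, against 1.66 and 2.85 in Model and, in MUS, 2.85 and 2.92. The Model libraries spanned the whole range of Control. The log2 difference was 0.08 (SE 0.25) in Model vs. Control, which turned to -0.44 on the CPM scale, and 0.28 (SE 0.25) in MUS vs. Model. Its 8907 exon bases share 8.1% with 1110065P20Rik.

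**Figure D2:**
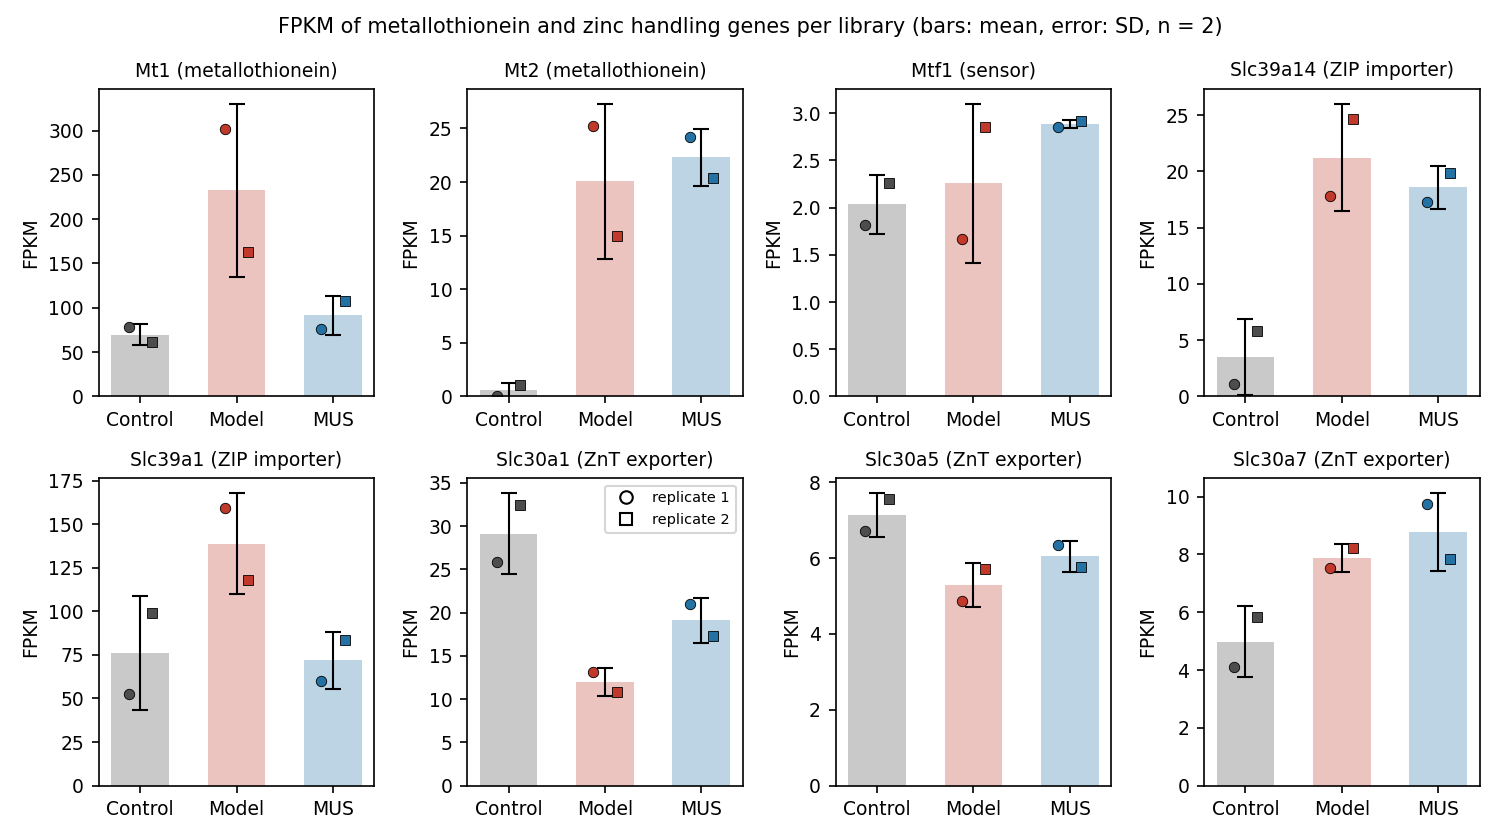
FPKM of the 8 genes per library (circles for replicate 1, squares for replicate 2) with the group mean as a bar from 0 and the SD as an error bar (n = 2), cut off at 0 where the SD exceeds the mean. Mt1 and Slc39a1 are highest in Model, Mt2 and Slc39a14 are high in both Model and MUS, and Slc30a1 is lowest in Model.

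The importer gene Slc39a14 was low in Control and high in both groups with LPS and ATP. It had 1.11 and 5.86 FPKM in Control, 17.9 and 24.6 in the Model libraries and 17.3 and 19.9 in MUS. Model and MUS overlapped, and both lay above Control. The mean was 3.48 ± 3.36 FPKM in Control, 21.2 ± 4.79 in Model and 18.6 ± 1.88 in MUS, which is 6.10-fold and 5.33-fold above Control. The log2 difference was 2.53 (SE 0.52) in Model vs. Control, and its size depended on the Control library used, as it was 1.68 without Control replicate 1 and 3.38 without Control replicate 2. As CPM it was 2.49 in Model vs. Control. In MUS vs. Model it was -0.17 (SE 0.52).

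Slc39a1, which encodes the plasma membrane importer ZIP1, had the highest listed level of the ZIP genes. It had 52.8 and 99.0 FPKM in Control, against 159 and 118 in Model and, in MUS, 60.3 and 83.4. Model lay above both other groups, which overlapped each other. MUS was 1.93-fold below Model, with a log2 fold change of -0.94 (SE 0.40), and Model was 1.83-fold above Control, with 0.91 (SE 0.40). The second difference depends on the scale, since the Control libraries had 181 and 312 CPM and the Model libraries 342 and 279, which overlap. The MUS libraries, at 133 and 194 CPM, were below Model on this scale too. Of the 50-base stretches of Slc39a1, 21.8% also occur in the pseudogene Slc39a1-ps, which had 1.30 to 11.5 FPKM.

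The exporter gene Slc30a1 had the opposite order, lowest in Model. Its product, ZnT1, takes zinc out of the cell across the plasma membrane. It had 25.8 and 32.5 FPKM in Control, 13.1 and 10.8 in the Model libraries and 20.98 and 17.3 in MUS. The groups did not overlap, with Control highest, MUS between and Model lowest. Model was 2.44-fold below Control, with a log2 fold change of -1.21 (SE 0.26), and MUS was 1.60-fold above Model, with 0.63 (SE 0.26). In MUS vs. Control the log2 fold change was -0.58 (SE 0.26). The order was the same on the CPM scale, with -1.83 in Model vs. Control and -1.14 in MUS vs. Control.

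Slc30a5 and Slc30a7 encode ZnT5 and ZnT7, which load zinc into the secretory pathway. Slc30a5 had 6.73 and 7.55 FPKM in Control, against 4.88 and 5.71 in Model and, in MUS, 6.34 and 5.76. Slc30a7 had 4.11 and 5.85 FPKM in Control, 7.52 and 8.22 in the Model libraries and 9.74 and 7.84 in MUS. The log2 fold changes in Model vs. Control were small and of opposite sign, -0.37 (SE 0.21) for Slc30a5 and 0.58 (SE 0.24) for Slc30a7. On the CPM scale they were -0.98 for Slc30a5 and 0.13 for Slc30a7, and the Slc30a7 libraries of the 2 groups overlapped. In MUS vs. Model the changes were 0.17 for Slc30a5 and 0.14 for Slc30a7.

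Control replicate 2 was above Control replicate 1 in 7 of the 8 genes, all but Mt1. The share of all genes with this order was not counted, so it is not read as a trait of the 8. The FPKM were computed per 1.45 times the fragments on genes in Control replicate 1 and per 1.34 times in Control replicate 2.

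Of the 8 genes, 4 passed the call threshold in Model vs. Control (limma adjusted p up to 0.05 with a change of over 1 on the log2 scale, up or down), namely Mt1, Mt2 and Slc39a14 upward and Slc30a1 downward, where 15.1% of all genes tested passed. In MUS vs. Control it was 2 of 8, Mt2 and Slc39a14, where 20.2% passed. In MUS vs. Model it was 0 of 8, where 0% passed, as limma called 0 of 9794 genes, 825 of which had an unadjusted p under 0.05. Mt1 and Slc30a1 were the 2 genes of the 8 among those. Voom on recovered fragments also called 0 genes, with 689 at an unadjusted p under 0.05. As the 8 genes were picked on these contrasts, nothing is read from these counts or from the unadjusted p of Mt1 and Slc30a1. No overlap between the Control and Model libraries was seen in 7 of the 8 genes, against 61.1% of all genes tested, those of MUS and Model in 4, against 42.1%, and those of MUS and Control in 6, against 73.3%. The median log2 fold change of the 8 genes was 0.75 in Model vs. Control, 0.15 in MUS vs. Model and 0.37 in MUS vs. Control, beside 0.04, 0.01 and 0.04 over all genes tested. The medians of the 8 genes as CPM were 0.26, 0.18 and -0.10, beside -0.50, 0.03 and -0.48 over all genes, so that the sign in MUS vs. Control turned.

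**Figure D3:**
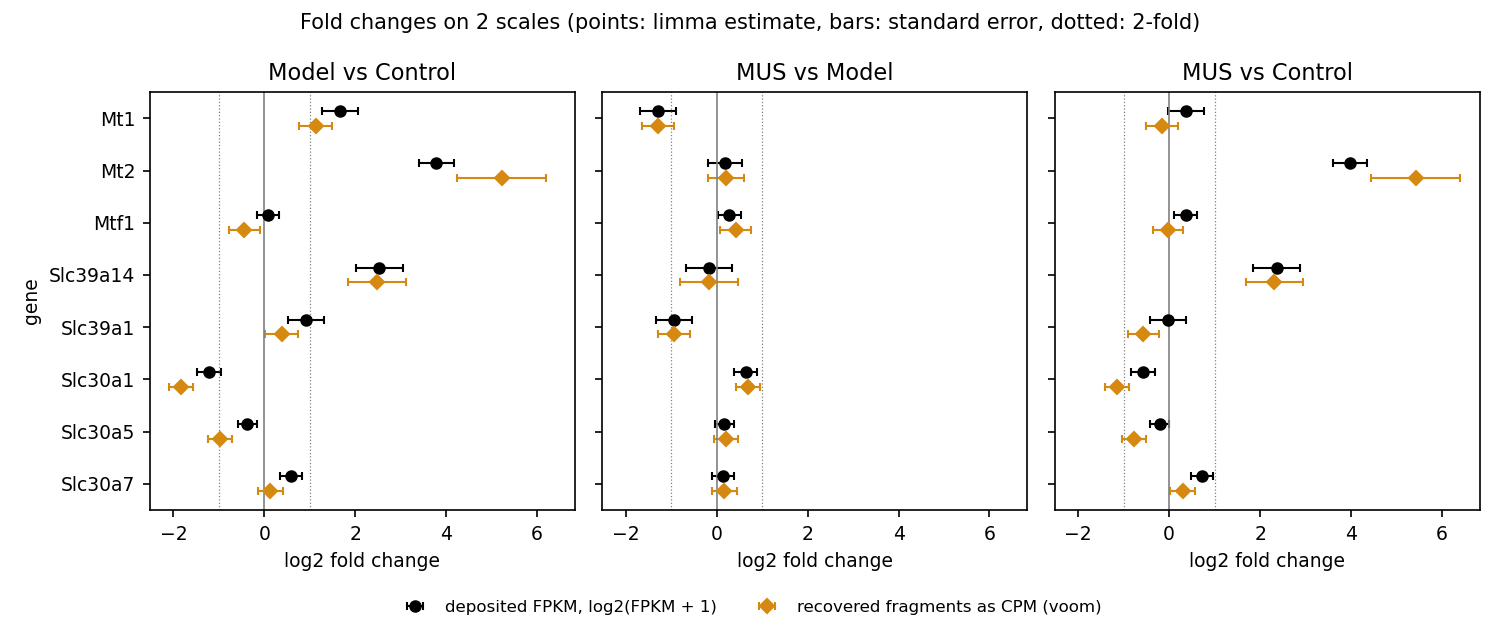
Log2 fold changes of the 8 genes (x axis) in the 3 comparisons, as limma estimates with their standard errors, from the deposited FPKM (black) and from recovered fragments as CPM (orange). In Model vs. Control the orange points of Mt1, Slc39a1 and Slc30a1 lie to the left of the black ones, at 1.13, 0.38 and -1.83, and in MUS vs. Model both scales nearly coincide.

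Ratios within each library, which need no scale, set the importer genes Slc39a14 and Slc39a1 against the exporter gene Slc30a1. Slc39a14 over Slc30a1 was 0.0429 and 0.180 in Control, against 1.36 and 2.28 in Model and, in MUS, 0.822 and 1.15. Slc39a1 over Slc30a1 was 2.04 and 3.05 in Control, 12.1 and 10.9 in the Model libraries and 2.87 and 4.83 in MUS. In both ratios Model was highest with no overlap with the other groups. MUS lay above Control in the first and overlapped it in the second. As these genes were picked with the values in view, the order follows from theirs and is a description only.

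The whole families, 14 ZIP and 10 ZnT genes, were also set against each other as sums. These include the genes picked with the values in view, and sums without those genes were not taken. The sums are therefore a description and no separate test of the families. The summed FPKM of the ZIP genes was 2.05 and 2.39 times that of the ZnT genes in Control, against 3.96 and 3.68 times in Model and, in MUS, 1.65 and 2.36 times. Model was highest, and MUS and Control overlapped. Slc39a1 alone was 55.3% to 74.1% of the ZIP sum, in which Slc39a7 counts at its listed level of at most 0.656 FPKM. Slc30a1 made up 55.6% and 51.7% of the ZnT sum in Control, 24.1% and 22.1% in the Model libraries and 32.3% and 30.0% in MUS, while Slc30a4 made up 5.18% and 5.40% in Control, against 16.7% and 18.3% in Model and, in MUS, 18.4% and 17.3%.

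**Figure D4:**
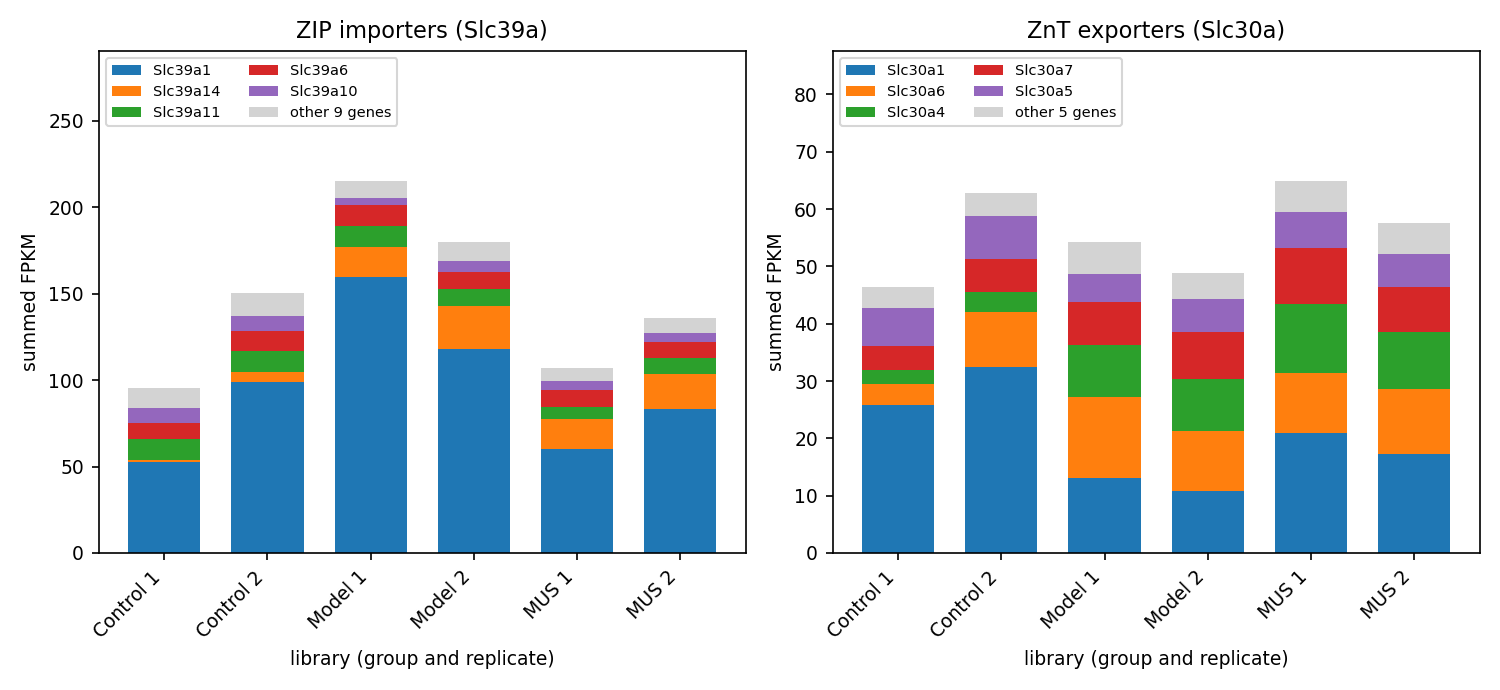
Summed FPKM of ZIP importer genes (left) and ZnT exporter genes (right) in each library, divided among the 5 genes of each family with the highest mean and the remaining genes (light grey). Slc39a1 is the largest part of every ZIP bar, and the Slc30a1 part is 55.6% and 51.7% of the ZnT bars in Control and 24.1% and 22.1% in Model.

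Besides the 8 genes, 21 other metallothionein, ZIP and ZnT genes were listed, of which 9 passed the FPKM filter. In Model vs. Control 1 of the 9 was called, beside 15.1% of all genes tested, in MUS vs. Control 2 of the 9, beside 20.2%, and in MUS vs. Model 0 of the 9, with 0 at an unadjusted p under 0.05. The median of their log2 fold changes was -0.03 in Model vs. Control, -0.15 in MUS vs. Model and -0.08 in MUS vs. Control. Those tested were Slc30a4, Slc30a6, Slc30a9, Slc39a3, Slc39a6, Slc39a9, Slc39a10, Slc39a11 and Slc39a13, of which Slc39a13 passed the filter only through Control. The other 12, namely Mt3, Mt4, Slc30a2, Slc30a3, Slc30a8, Slc30a10, Slc39a2, Slc39a4, Slc39a5, Slc39a7, Slc39a8 and Slc39a12, had at most 1.77 FPKM in any library. Of the exon bases of Slc39a7, 80.7% are shared with Gm20427. How such reads were assigned was not given, so its low level and its part in the ZIP sums are uncertain.

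Slc30a4 encodes ZnT4, an exporter of endosomal and lysosomal vesicles. It had 2.41 and 3.40 FPKM in Control, 9.10 and 8.97 in the Model libraries and 12.0 and 9.95 in MUS, with no overlap between Control and the others. It rose in Model vs. Control by a log2 fold change of 1.37 (SE 0.23, limma adjusted p = 0.0103) and in MUS vs. Control by 1.62 (SE 0.23, limma adjusted p = 0.00494). The first call ended without Control replicate 1 (limma adjusted p = 0.0548) or Model replicate 1 (limma adjusted p = 0.0504), and the second without MUS replicate 1 (limma adjusted p = 0.0679). Slc30a4 was also called in both as CPM, at 1.11 and 1.39. The first was not called at the value of 0.86 given by rescaling without mitochondrial and the 20 highest genes.

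Slc39a13 encodes ZIP13, which moves zinc out of vesicles of the secretory pathway. It had 2.44 and 2.23 FPKM in Control, against 0.888 and 0.795 in Model and, in MUS, 0.666 and 0.556. Both treated groups lay below Control. The mean was 2.33 FPKM in Control, 0.842 in Model and 0.611 in MUS, so the gene passed the filter at 1 FPKM only through Control. Its p-values against Control are given with that limit and not read as support. Slc39a13 fell in MUS vs. Control by 1.05 on the log2 scale (SE 0.22, limma adjusted p = 0.0157). In Model vs. Control the change was -0.86 (SE 0.22, limma adjusted p = 0.0371), short of the fold threshold. On the CPM scale Slc39a13 was called in Model vs. Control, at -2.01. The call in MUS vs. Control ended without Control replicate 1 (limma adjusted p = 0.0548), MUS replicate 1 (limma adjusted p = 0.113) or MUS replicate 2 (limma adjusted p = 0.104).

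S100a8, a subunit of the zinc-binding protein calprotectin and a neutrophil marker, had 13.5 and 30.6 FPKM in Control, 110 and 56.5 in the Model libraries and 64.0 and 50.3 in MUS. Its partner S100a9 and the neutrophil marker Ly6g were listed at 0 in all 6 libraries. As S100a8 was well measured, the listed 0 of S100a9 is not read as absence. Only 1 of the 5 neutrophil markers, S100a8, passed the FPKM filter, and the summed level of the list, 13.7 to 30.7 FPKM in Control, 56.5 to 110 in Model and 50.3 to 64.0 in MUS, is nearly that gene alone. The part of other cells in the levels of the 8 genes was not tested. Summed markers of B cells reached 1.59 FPKM, those of T and innate lymphocytes 1.26, those of mast cells 0.848, those of eosinophils 4.17 and those of mesothelial cells and fibroblasts 16.1.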

How the data were processed

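Gene levels were taken from the deposited table of FPKM, a level per length and library made by the authors, which holds 54532 genes, 6 libraries and 0 columns with no sample. The paper's methods name RSEM for these values, while the submitters' processing notes name HISAT2, featureCounts 1.5.0-p3 and GRCm39. Deposited gene coordinates match GRCm38, as 98.3% of the 54409 identifiers shared with GENCODE M21 have the same start and end. Whether counting used strand is not given in the sources used here. FPKM times length was a whole multiple of 1 step in each library for 100% of values above 0, within 0.1 of a step, so fragments on genes were recovered, and are given as CPM. Depth was 15526321 to 17135442 fragments, and intervals cover counting error only.

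log2(FPKM + 1) was fitted for 9794 genes, those whose mean FPKM reached 1, with limma 3.58.1 in R 4.3.3 (lmFit, contrasts.fit, eBayes with trend), with all 6 libraries in 3 groups. This left 3 residual and 4.04 prior degrees of freedom. A call needed a two-sided Benjamini-Hochberg adjusted p of at most 0.05 over all genes tested and an absolute log2 fold change over 1. Fold changes are on the log2(FPKM + 1) scale, which understates those of low genes. The fit was also run on simulated data with independent normal noise for each library. Those data did not hold the lower FPKM scale of Control or the excess of genes in Model replicate 1. The run therefore does not bear on how these affect the calls. Tables and figures were made with Python 3.11.15, pandas 2.3.3, NumPy 2.4.6 and Matplotlib 3.10.9.

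The members and lists were chosen with earlier results of these data known. Named were all 8 members, all metallothionein, ZIP and ZnT genes, copper genes called, S100a8 and S100a9, and the 3 genes nearest in pattern to Mt1 and to Mt2. The batch was taken as the replicate number in the sample titles, which do not say whether libraries with the same number were paired. The differences between replicates correlated across genes by 0.12 between Control and Model, 0.14 between Model and MUS and -0.09 between Control and MUS. A block for this number was fitted as an alternative. Other alternatives were a pseudocount of 0.1, no filter, a filter at 5 FPKM, a rescaling without mitochondrial and the 20 highest genes, quantile normalization, voom on recovered fragments, a fit of the 2 groups compared, and leaving out each library. The authors' own fold changes were not used. Promoter sequences were from RefSeq (GRCm38.p6), with 25 of the 29 zinc genes matched and 7 of the 8 members.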

Additional observations from a re-analysis of the deposited data

How the results depend on the processing

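With 2 libraries per group, calls depend on the pooled spread. They also depend on the scale, as Mt1 was called in Model vs. Control but not after the rescaling or quantile normalization. Of the 8 genes, 4 were called in Model vs. Control, but 1 with no filter and 1 with only the 2 groups compared, and 1 to 3 when 1 library was left out. In MUS vs. Control 2 were called, but 1 with no filter and 1 to 2 when 1 library was left out, and 3 after the rescaling, quantile normalization and voom, which added Slc30a1 (-1.11, -1.05 and -1.14). Of the other zinc genes, 1 was called in Model vs. Control, but 0 with no filter, 2 after the rescaling, 3 with voom and 0 to 2 when 1 library was left out. In MUS vs. Control 2 were called, but 1 with no filter, 1 with a mean of at least 5 FPKM, 5 after the rescaling, 5 with voom and 0 to 3 when 1 library was left out. Of the copper genes, 1 was called in Model vs. Control, but 2 with a pseudocount of 0.1, 0 with no filter, 2 with voom and 0 to 3 when 1 library was left out. In MUS vs. Control 1 was called, but 3 with a pseudocount of 0.1, 0 with no filter, 3 with voom and 0 to 3 when 1 library was left out. The cause of these changes was not tested. Over all genes, 1107 were called up and 873 down in MUS vs. Control. These counts were 721 and 1968 after the rescaling, 885 and 1102 after quantile normalization and 758 and 2386 with voom. The median log2 fold change of that comparison went from 0.04 to -0.40, -0.06 and -0.48 under these settings. In Model vs. Control 930 rose and 545 fell, but 584 and 1790 after the rescaling and 684 and 2050 with voom. With no filter 260 genes were called there and 456 in MUS vs. Control, against 1475 and 1980, and with only the 2 groups compared 797 were called in Model vs. Control. Leaving out 1 library gave 692 to 2077 in Model vs. Control and 184 (without MUS replicate 1) to 2398 in MUS vs. Control, so the shares of 15.1% and 20.2% given as background move with it.

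With the replicate block, 4 of the 8 genes were called in Model vs. Control, 0 in MUS vs. Model and 2 in MUS vs. Control, and the block changed no call of the 8 genes, the other zinc genes or the copper genes. In MUS vs. Model the count over all genes was 0, against 1 with a pseudocount of 0.1, 4 with the block, 7 with only the 2 groups compared, 5 without Control replicate 1, 5 without Control replicate 2 and 31 without Model replicate 2, and Mt1 was called in 0 of 14 alternatives, with values from -1.73 to -0.85. Of 333 values for the 8 genes under alternatives, 14 had the other sign. Mtf1 and Slc39a13 could not be given with a mean of at least 5 FPKM.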

Other observations

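Copper was examined as the other metal that metallothioneins bind, with 10 genes of copper uptake and delivery, of which 8 passed the FPKM filter. Sco1, a copper chaperone of cytochrome c oxidase, was called in Model vs. Control and MUS vs. Control, 1 of 8 in each, beside 15.1% and 20.2% of all genes tested. It had 1.62 and 3.61 FPKM in Control, against 11.8 and 10.98 in Model and, in MUS, 7.97 and 8.47, and the 3 groups did not overlap. The log2 fold change of Sco1 was 1.83 (SE 0.29, limma adjusted p = 0.00915) in Model vs. Control and 1.41 (SE 0.29, limma adjusted p = 0.0164) in MUS vs. Control. The first call ended without Model replicate 1 (limma adjusted p = 0.0555), and the second without Control replicate 1 (limma adjusted p = 0.0656), MUS replicate 1 (limma adjusted p = 0.115) or MUS replicate 2 (limma adjusted p = 0.0958). Sco1 was also called in both as CPM, at 1.68 and 1.22. After rescaling without mitochondrial and the 20 highest genes Sco1 was not called in MUS vs. Control, at 0.99, and the 1 copper gene called there was Ccs, at -1.34. In MUS vs. Model 0 of the 8 were called by limma, and 1, Ccs, the copper chaperone of superoxide dismutase, had an unadjusted p under 0.05, with a log2 fold change of -0.86 (SE 0.21, limma adjusted p = 0.38). The median log2 fold change of the 8 copper genes was 0.78 in Model vs. Control, -0.14 in MUS vs. Model and 0.69 in MUS vs. Control, beside 0.04, 0.01 and 0.04 over all genes tested.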
